A study of Mus musculus with 2 samples.

Results

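Cells with the transcripts of lung and foregut mesenchyme were picked out of 2 single-cell RNA-seq libraries of the E13.5 mouse embryo. A cell was a member when it held at least 1 UMI (unique molecular identifier, 1 counted RNA molecule) of at least 3 of 6 genes, Tbx4, Wnt2, Tcf21, Adh1, Hoxb5 and Tbx2, and of fewer than 2 of 7 genes of other cell types, Cdh5, Pecam1, Epcam, Ptprc, Myog, Pax7 and Upk3b. The limits on quality were over 2000 and under 9000 detected genes and under 10% mitochondrial UMIs. Of the 6272 cells within them, 579 were members, 475 of 2783 in the control library and 104 of 3489 in the mutant library. They were described against other mesenchyme, 927 cells that were not members, held a UMI of at least 2 of Prrx1, Twist1 and Pdgfra, and met the same limit on the 7 genes.

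Both libraries were made from eYFP-positive cells sorted from 3 pooled embryos each. The control embryos were Isl1-Cre;R26R-eYFP. The mutant embryos were Isl1-Cre;R26R-eYFP;Pik3caH1047R, and so carried an activating form of the catalytic subunit of PI3 kinase in addition to the driver and reporter that both groups share. Cre is driven by Isl1, a gene of second heart field and pharyngeal progenitors, so eYFP marks the cells descended from those that once expressed Isl1, not those that express it at E13.5. The labels name the tissue as pharyngeal arch, whereas the dissection took the upper body above the liver, which holds the developing lung and foregut.

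Lung and foregut mesenchyme surrounds the endoderm of the trachea, lung buds, oesophagus and stomach and forms their fibroblasts and smooth muscle. Endoderm and mesenchyme signal to each other: Sonic hedgehog from the epithelium acts on the mesenchyme through Ptch1 and the Gli factors, and the mesenchyme returns Wnt2, Fgf10 and BMP ligands that specify and branch the lung. Tbx4 and Tbx5 are T-box factors of the lung mesenchyme, Foxf1 is a forkhead factor of the mesenchyme around the gut tube and a target of hedgehog signalling, and Hox genes of the fourth to sixth groups mark this level of the body axis.

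With 1 library per genotype there was no test of any difference between genotypes, and each interval given here is a 95% interval for counting error alone. Levels are the summed UMIs of a group of cells as a share of all its UMIs, scaled to CPM (1e+06 UMIs), with exact Poisson intervals, shares carry Clopper-Pearson intervals, and log2 ratios of CPM carry conditional exact intervals. The members held 11265469 UMIs in the control library and 2457869 in the mutant library, and other mesenchyme 8480371 and 8789930. Median depth per member was close, 22592 UMIs in control and 22769.5 in mutant, while other mesenchyme was shallower at 16599.5 and 15748. The libraries shared 28 of their deposited cell barcodes, and 0 of these belonged to members in both.

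The libraries differed in sex composition, and so did the members. Called from Xist and from a set of 4 genes on the Y chromosome, 465 of 475 control members were female-like and 0 male-like, which allows a share of up to 0.632% (3 cells of the total, the limit used here for a count of 0). In contrast, 87 of 104 mutant members were male-like and 8 female-like. Within the mutant library, members were 0.682% of the female-like cells (8 of 1173, 0.295 to 1.34) and 4.67% of the male-like cells (87 of 1861, 3.76 to 5.73). The shares of other mesenchyme in these cells were 13.6% and 14.6%, and their median depths 16642 and 17366 UMIs. Most mutant members thus came from male-like cells of 1 pool, almost all control members from female-like cells of another, and genotype, sex and embryo cannot be told apart in any comparison of members between the libraries.

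Members were 17.1% of control cells (15.7 to 18.5) and 2.98% of mutant cells (2.44 to 3.60). With all cells thinned to 5000 UMIs, the rule was met by 333 of 2722 control cells (12.2%) and 42 of 3316 mutant cells (1.27%), so the gap between the libraries was also seen at equal depth. Taken over mesenchyme alone, members were 51.6% of the 921 mesenchymal cells in control (48.3 to 54.8) and 17.8% of 585 in mutant (14.8 to 21.1), while other mesenchyme took similar shares of the libraries, 16.0% and 13.8%. Whether the dissections held equal amounts of lung and foregut was not tested.

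The members of the 2 libraries also met the rule in different ways. All 6 genes were detected in 178 control members (37.5%, 33.1 to 42.0) and in 8 mutant members (7.69%, 3.38 to 14.6). Exactly 3 genes were detected in 18.7% of control and 46.2% of mutant members. The commonest sets were all 6 genes and all but Wnt2 (78 members) in control, and Tbx4, Tcf21, Hoxb5 and Tbx2 (24 members) and Tbx4, Tcf21 and Tbx2 (22 members) in mutant. Just outside the rule, 157 control and 146 mutant cells held exactly 2 of the genes, against 89 and 48 just inside it with 3.

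**Figure D1:**
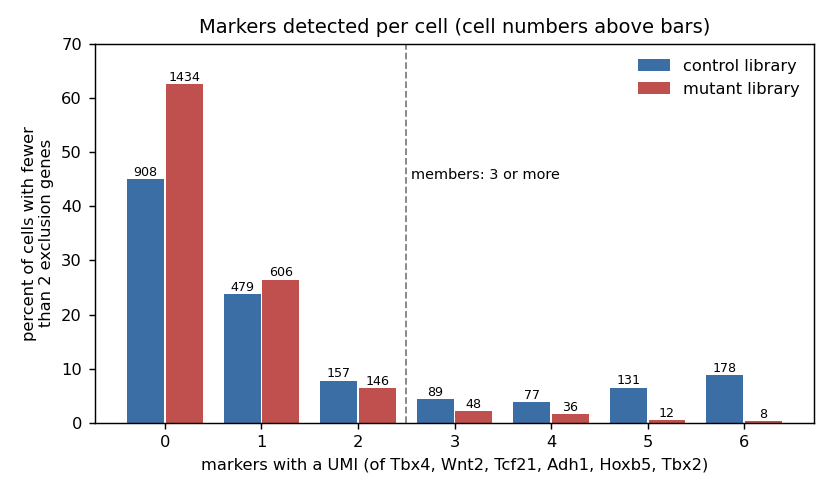
Percent of cells (with fewer than 2 of the 7 exclusion genes) by the number of the 6 rule genes with a UMI, in the control (blue) and mutant (red) library, with cell numbers above the bars and the rule's threshold of 3 marked. In control the bars climb again from 77 cells at 4 genes to 178 at 6, whereas in mutant they drop from 48 cells at 3 genes to 8 at 6.

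Since these genes chose the members, their levels are a description. Tbx4 (chr11:85886422-85916097, mm10) and its neighbour Tbx2 (chr11:85832551-85841948), a T-box repressor of the lung mesenchyme, had close levels in members of both libraries: Tbx4 stood at 151 CPM in control and 138 in mutant, and Tbx2 at 242 and 194. Tcf21 (chr10:22817281-22820174), a factor of lung and kidney mesenchyme, had 204 CPM in control and 156 in mutant. Hoxb5 (chr11:96303336-96306121), which patterns the lung bud mesenchyme, had 201 and 103 CPM. The wide gaps lay in the other rule genes: Wnt2 (chr6:17988940-18030585), the ligand that with Wnt2b specifies the lung, had 138 and 31.7 CPM, and Adh1 (chr3:138260991-138290698), an alcohol dehydrogenase that oxidises retinol, had 340 and 43.9 CPM.

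Detection told the same difference in cells. Wnt2 was detected in 58.3% of control and 26% of mutant members, and Adh1 in 73.1% and 28.8%, while Tbx4 was detected in 89.9% and 85.6%. Cells holding both Cdh5 and Pecam1, endothelial genes, were set beside them. In these 165 control and 709 mutant cells, with medians of 20915 and 18020 UMIs, Adh1 was detected in 10.3% and 4.8%. Wnt2 was detected in 5.45% and 1.83% of them and Tbx4 in 4.24% and 1.27%. Free RNA was not measured, and these shares can also hold RNA that the cells made themselves. In other mesenchyme Adh1 was detected in 10.1% and 2.49% of cells, which is no more than in the endothelial cells. Isl1 itself was detected in 7.37% of control and 21.2% of mutant members, against 7.88% and 15.2% of the endothelial cells. The control share was thus no more than in the endothelial cells.

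The label was set beside 16 further genes of foregut mesenchyme that the rule did not use. This list was chosen with earlier results of these data known. Other mesenchyme was also limited to cells with fewer than 3 rule genes, so the comparison is a description and not an independent check. Of the 15 with at least 20 UMIs over the 2 groups, 10 were at least 2-fold higher in members than in other mesenchyme in control and 9 in mutant, with medians of 1.53 and 1.94 on the log2 scale. Over all genes with at least 50 UMIs, 3.17% were at least 2-fold higher in members in control and 2.05% in mutant, 12% and 8.24% were at least 2-fold lower, and the medians were -0.07 in both. Cells chosen by Tbx4, Wnt2 and the rest thus also held Foxf1, Tbx5 and Hoxa5 above other mesenchyme in both libraries. The mutant median was less firm: it was 0.49 with cells thinned to 5000 UMIs, where 42 mutant cells met the rule, and 1.12 in female-like cells, against 1.33 in control after thinning.

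Foxf1 had 123 CPM in control members and 197 in mutant members, against 11.4 and 41.4 in other mesenchyme, log2 ratios of 3.43 (3.13 to 3.74) and 2.25 (2.05 to 2.45). Tbx5 had 112 and 133 CPM in members and 39.1 and 34.6 in other mesenchyme. Hoxa5, whose loss impairs lung and trachea formation, had 140 and 129 CPM against 17.8 and 19.7. These levels lay apart from other mesenchyme in each library, and Foxf1 was detected in 64.4% of control and 68.3% of mutant members, Hoxa5 in 80.6% and 76.9% and Tbx5 in 78.9% and 78.8%. Not every foregut gene followed. Barx1, a factor of the stomach mesenchyme, was lower in members in both libraries, at 4.97 and 5.29 CPM against 35.8 and 19.7, and Osr1 had log2 ratios of -1.37 in control and 0.22 in mutant. Nkx6-1, at 10 and 21 UMIs in members, had ratios of 0.59 (-1.09 to 2.49) and 3.42 (2.14 to 4.90).

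**Figure D2:**
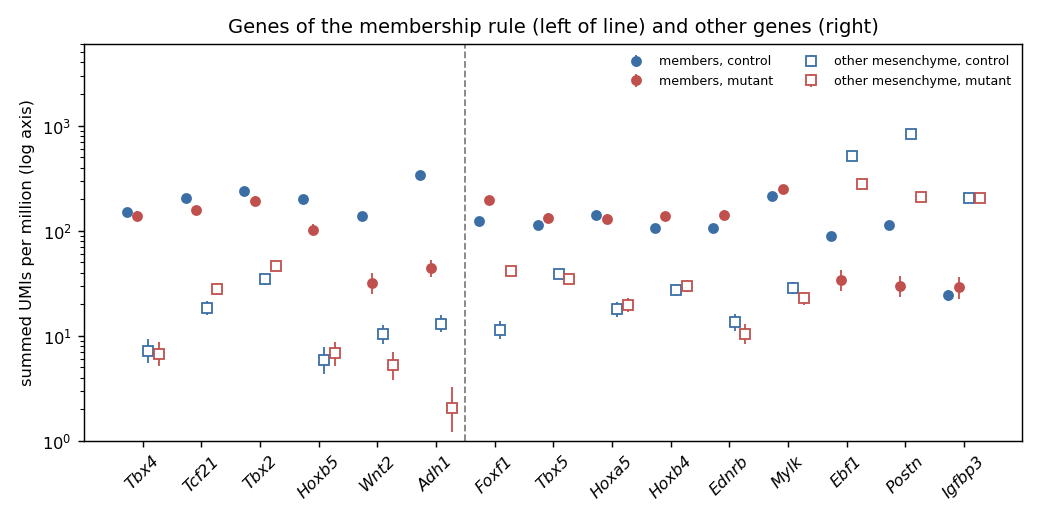
Level in CPM (log axis) of the 6 rule genes, left of the line, and 9 other genes, right of it, in members (filled) and other mesenchyme (open) of the control (blue) and mutant (red) library, with 95% Poisson intervals. Foxf1, Hoxa5, Ednrb and Mylk stand above other mesenchyme and Ebf1, Postn and Igfbp3 below it in both libraries. The rule genes chose the members, so their height over other mesenchyme is a description only. Wnt2 and Adh1 are the rule genes with the wide gap between control and mutant members (340 and 43.9 CPM for Adh1).

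Across all genes with at least 100 CPM in the higher group, 16 genes outside the rule were higher in members by an interval wholly beyond 2-fold in both libraries, and 25 were lower. The genes named below were taken from these by the size of the smaller ratio. Ednrb, an endothelin receptor, led with 106 and 143 CPM in members against 13.6 and 10.5 in other mesenchyme, log2 ratios of 2.97 (2.69 to 3.26) and 3.77 (3.44 to 4.12). Mylk, the kinase that starts smooth muscle contraction, followed at 2.92 (2.73 to 3.12) and 3.47 (3.23 to 3.70). Hoxa5 at 2.97 and 2.71, Foxf1, Hoxb4 at 1.99 and 2.20 and Tbx5 at 1.52 and 1.94 were factors among the 12, and Pde5a, the cyclic GMP phosphodiesterase of smooth muscle, stood at 2.13 and 2.44. The other 5 were Cacnb2, Ppp1r14a, Sparcl1, Gyg and Nkain4, with ratios between 1.55 and 3.41.

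The genes lower in members included several of fibroblasts and other connective tissue. Postn, a matrix protein of fibroblasts and valves, had 112 and 29.7 CPM in members against 842 and 208 in other mesenchyme. All of Ebf1, Ebf2 and Ebf3, related factors of connective tissue progenitors, were lower, Ebf1 by log2 ratios of -2.52 (-2.62 to -2.42) in control and -3.04 (-3.38 to -2.73) in mutant. Penk, which encodes the enkephalin precursor, had 15.4 and 6.10 CPM against 121 and 101, and Igfbp3, an IGF-binding protein, 24.2 and 28.9 against 205 and 207. Crabp1, a retinoic acid-binding protein of cranial mesenchyme, stood at -2.13 and -2.68. Tox, Mir100hg, Fbln2, S100a10 and Lpar1 were the rest of the 12, between -3.13 and -1.75.

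Position along the body axis separated members from other mesenchyme by cluster as well as by group. Of 9 Hox genes of groups 4 to 6, those of the A and B clusters were higher in members and those of the C and D clusters lower in control, and in mutant, where Hoxc4 and Hoxc5 stood at -0.46 and -0.07, Hoxc6 and Hoxd4 were lower by over 2-fold: Hoxb6 had 85.2 and 41.1 CPM in members against 3.30 and 4.10, and Hoxa4 31.5 and 39.5 against 8.84 and 7.17. Hoxc5 had 2.31 and 14.2 CPM in members against 24.2 and 14.9, and Hoxc6 1.69 and 2.03 against 10.5 and 9.78. The list's medians were 1.83 in control and 1.07 in mutant, but the control median was -0.41 in members without Adh1 and Wnt2. Groups 1 to 3 had medians of 1.20 and 0.86, with Hoxb2 at 1.92 and 1.53 and Hoxb3 at 1.60 and 1.19, while Hoxd1 (2 UMIs in the members of each library) stood at -4.41 and -1.41 and Hoxd3 at -3.56 and -3.12. Groups 7 to 10 had medians of -3.07 and -2.92, with 6 of 9 and 7 of 9 measured genes at least 2-fold lower, Hoxa10 at 2.22 and 2.44 CPM against 43.5 and 32.0. Hoxb8 was an exception, at 13.3 and 6.10 CPM in members against 1.53 and 2.96. Genes of the face and jaw were lower too: of 21 factors of cranial and pharyngeal mesenchyme, 19 of 20 measured were at least 2-fold lower in control members and 15 of 19 in mutant members, with medians of -3.59 and -1.81, and Msx1 had 2.40 and 16.3 CPM against 49.2 and 77.5.

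**Figure D3:**
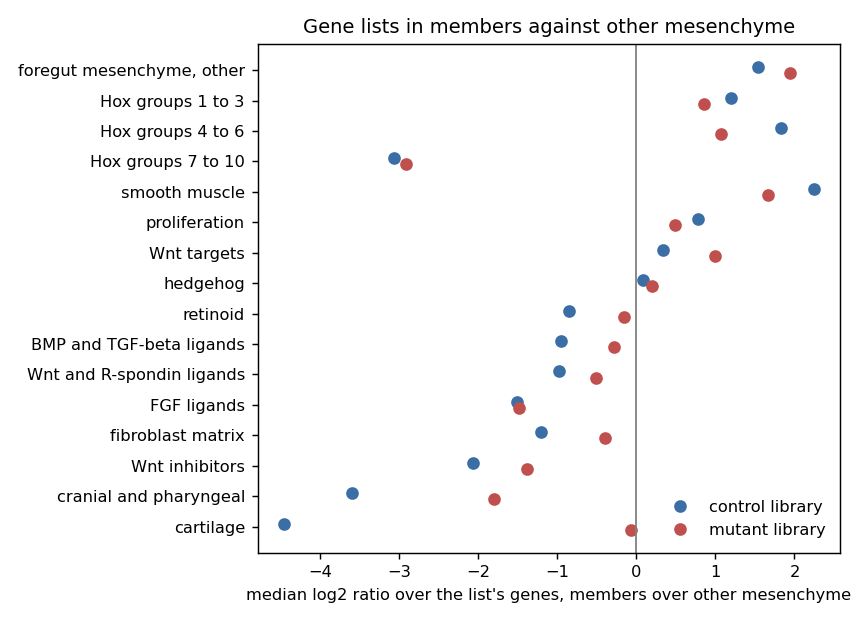
Median log2 ratio of members over other mesenchyme for 16 gene lists, in the control (blue) and mutant (red) library, with the line at equal levels. Foregut, smooth muscle and Hox groups 1 to 6 lie right of the line in both libraries, Hox groups 7 to 10 and cranial and pharyngeal genes left of it, and the cartilage list lies at -4.46 in control and -0.07 in mutant.

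Among hedgehog genes, Ptch1, Gli1 and Hhip were higher in members, while the list's medians lay near 0. Ptch1, the receptor and a direct target, had 143 and 149 CPM in members against 45.2 and 72.0 in other mesenchyme, log2 ratios of 1.67 (1.5 to 1.83) and 1.05 (0.86 to 1.24). Gli1, another target, stood at 1.16 and 1.28, and Hhip, a secreted inhibitor that lung mesenchyme makes, stood at 1.58 (1.30 to 1.87) and 2.92 (2.61 to 3.23). The transducer Smo had -0.06 and -0.11 and Gli2 and Gli3 lay between -0.30 and 0.28. The coreceptors Cdon and Gas1 were lower, at -2.13 and -1.86 in control and -0.94 and -0.89 in mutant. The list's medians were 0.08 in control and 0.20 in mutant.

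Of the Wnt ligands and R-spondins outside the rule, Rspo2, which amplifies Wnt signals in lung and limb, was higher in control members, 161 CPM against 55.5, and stood at 58.2 against 37.8 in mutant. Wnt5a, a ligand of outgrowing tissue, had log2 ratios of -2.25 and -0.98 and Wnt11 of -0.32 and 0.18. The 12 and 11 measured genes of this list had medians of -0.98 and -0.51. Secreted inhibitors were lower as a list (medians -2.07 and -1.39), with Dkk2 at -3.24 and -1.79, but Notum, which inactivates Wnt ligands by removing their lipid and is itself a Wnt target, had 5.41 CPM in control members and 37.0 in mutant members, against 4.48 and 6.83 in other mesenchyme. Of 7 genes that Wnt signals induce, 3 were at least 2-fold higher in each library, Tcf7 in both at 36.5 and 37.8 CPM against 6.01 and 4.10. Axin2, the general target, had ratios of 0.01 and -0.02. Receptors had medians of -0.67 and -0.66.

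Fgf10, the ligand that draws out the lung buds, had 55.0 CPM in control members against 31.6 in other mesenchyme, and 15.9 against 18.5 in mutant. It was detected in 44.0% of control members and 15.4% of mutant members, while 26.2% and 16.4% of other mesenchyme held it. Of the measured FGF ligands, Fgf10 included, 7 of 10 in control and 7 of 11 in mutant were at least 2-fold lower in members, Fgf7 at 8.43 and 1.22 CPM against 31.5 and 10.4. Receptors and feedback genes had medians of -0.11 and -0.62. Among BMP ligands, Bmp5 stood at 1.97 (1.75 to 2.19) and 0.97 (0.62 to 1.32), and Bmp4, the main BMP of distal lung, at -0.05 and -0.41; the decoy receptor Bambi stood at 1.67 and 0.63. Ligands of the BMP and TGF-beta families had medians of -0.95 and -0.28, their receptors of -0.45 and -0.32, and their inhibitors and targets of -0.67 and -0.35. In the retinoid list, which leaves out Adh1, the medians were -0.85 and -0.16, and Lrat, which stores retinol as an ester, had 80 UMIs in control members (7.1 CPM) and 2 in mutant members, against 3 and 10 in other mesenchyme.

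Members were rich in genes of smooth muscle and of dividing cells. Of 9 smooth muscle genes, 7 were at least 2-fold higher in control members and 6 in mutant members (medians 2.25 and 1.67). Acta2, smooth muscle actin, had 545 and 1424 CPM in members against 119 and 547. Myh11, the smooth muscle myosin, had 79.4 and 212 CPM against 15.3 and 9.56, and its activator Myocd 32.0 and 103 against 5.07 and 5.8. All 16 proliferation genes had ratios above 0 in both libraries, with medians of 0.78 and 0.49, as had 16 and 13 of 16 DNA replication genes, where 43.8% and 42.8% of all genes did. After thinning to 5000 UMIs, at least 2 of 5 proliferation genes were detected in 51.4% of control and 52.9% of mutant members and in 29.2% and 39.7% of other mesenchyme (75.4%, 75.0%, 49.1% and 59.5% at full depth). Fibroblast matrix genes were lower in control members, 15 of 24 by at least 2-fold (median -1.21), and 7 of 24 in mutant (median -0.40), but Col13a1, a membrane collagen of lung fibroblasts, had 121 and 60.6 CPM against 15.8 and 17.3.

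The members were not uniform. At least 3 of 5 smooth muscle genes were detected in 89 control members (18.7%, 15.3 to 22.5) and 29 mutant members (27.9%, 19.5 to 37.5), and at least 3 of 7 cartilage genes in 13 control members (2.74%, 1.47 to 4.63) and 22 mutant members (21.2%, 13.8 to 30.3). After thinning, these shares were 7.92% and 20.2% for smooth muscle genes. For cartilage genes they were 0 of 467 control members, which allows a share of up to 0.642%, and 14.4% of mutant members. Only 1 control and 3 mutant members held both sets, and 374 control and 56 mutant members held neither. At least 2 of 4 branchial muscle genes were found in 7 and 2 members. Myog, a muscle factor that the rule allows when it is the sole exclusion gene, was detected in 16.6% of control and 6.73% of mutant members, against 15.2% and 9.87% of cells with Cdh5 and Pecam1. Its UMIs numbered 459 in 79 control members and 142 in 7 mutant members, 40.7 and 57.8 CPM.

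Several genes followed these sets. In members with smooth muscle genes only, Ednrb had 299 CPM in control and 381 in mutant, against 54.5 and 35.3 in members with neither set. Hhip had 113 and 310 CPM against 28.8 and 21.8, and Foxf1 210 and 339 against 101 and 122. Mylk, itself on the smooth muscle list, had 402 and 650 against 166 and 53.3. The high Ednrb and Hhip of members over other mesenchyme was thus greatest in the cells with smooth muscle genes. Wnt2 went the other way, at 156 CPM in control members with neither set and 92.7 in those with smooth muscle genes, and in mutant at 54.0 and 7.27. The 19 mutant members with cartilage genes only held Tcf21 at 324 CPM, Tbx5 at 227 and Hoxa5 at 166, and also Notum at 113, against 133, 72.8, 134 and 15.8 in mutant members with neither set. The intervals of Hoxa5 overlapped (127 to 214 and 115 to 155). Foxf1 at 141 CPM and Tbx4 at 130 were near the 122 and 134 of members with neither set. The same 19 cells were low in other genes, with 3 UMIs each of Hoxb5, Hoxb6 and Fgf10 (8.30 CPM, against 131, 58.5 and 26.3) and 1 UMI of Wnt2.

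Levels of genes outside the rule also differed with the number of rule genes, but not always step by step. Among members, depth rose with this number too. Its medians were 15886 UMIs at 3 rule genes and 26300.5 at 6 in control, and 18689 and 35856 in mutant. The mutant values at 6 genes rest on 8 cells. In control, Hoxa5 had 20.2 CPM in cells with 2 rule genes, 107 with 3 and 158 with all 6, and in mutant 18.9, 94.4 and 199. Foxf1 had 12.6, 70.2 and 120 CPM in control (133 with 4 genes) and 39.4, 122 and 159 in mutant. Postn ran the other way, with 581, 414 and 24.7 CPM in control, and Ebf1 had 255, 380 and 7.75. Control members with 3 rule genes thus held Foxf1 and Hoxa5 well above the cells just outside the rule, Postn below them and Ebf1 above them. In mutant Ebf1 had 209 CPM with 2 genes, 49.3 with 3 and 11.9 with 6.

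Between the genotypes, 399 of 11710 genes (3.41%) were at least 2-fold higher in mutant members than in control members and 500 (4.27%) at least 2-fold lower, with a median of -0.01 over all genes. In other mesenchyme the shares were 3.60% and 5.33% of 12962 genes. Pik3ca had 38.3 CPM in control and 30.9 in mutant members, a log2 ratio of -0.31 (-0.68 to 0.04), and counts from the endogenous gene and from the H1047R allele cannot be told apart. Xist had 546 and 63.5 CPM, and it is the gene by which female-like cells were called.

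Foregut identity genes outside the rule had a median ratio of 0.17 between the genotypes, with 2 of 16 at least 2-fold higher and 3 lower in mutant members. Tbx5 stood at 0.24 (0.06 to 0.42), Hoxa5 at -0.12 (-0.30 to 0.05), Foxf1 at 0.68 (0.52 to 0.83) and Hhip at 1.29 (1.08 to 1.51). Ligands did not share 1 direction. The measured Wnt ligands and R-spondins outside the rule had a median of 0.29, with 6 of 11 above 0, and the BMP and TGF-beta ligands of 0.54, with 8 of 12 above 0, 4 at least 2-fold higher and 2 lower, while 4 of 8 FGF ligands were at least 2-fold lower and 0 higher. Among single ligands, Fgf10 stood at -1.79 (-2.30 to -1.33), Rspo2 at -1.47 (-1.72 to -1.22), Bmp5 at -1.09 (-1.39 to -0.80) and, by description only, Wnt2 at -2.12. In other mesenchyme these 4 genes stood at -0.77, -0.56, -0.10 and -0.99. Wnt5a stood at 0.92 (0.60 to 1.23) and Bmp4 at 0.28 (-0.00 to 0.55).

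Among genes of at least 100 CPM in either library, the lowest ratio in members was that of Hs6st3 (chr14:119138341-119869815), a heparan sulfate 6-O-sulfotransferase, with 473 CPM in control members and 34.6 in mutant members, against 42.8 and 25.6 in other mesenchyme. Its log2 ratio was -3.77 (-4.10 to -3.46) in members and -0.74 (-0.99 to -0.50) in other mesenchyme. Car2, a carbonic anhydrase, had 114 and 30.9 CPM in members and 5.66 and 5.57 in other mesenchyme, and Frem1, a basement membrane protein, 152 and 39.1 against 42.3 and 43.2. In members with Adh1 or Wnt2 the log2 ratios of Car2 and Frem1 were -1.78 and -1.87. In those without they were -0.72 (-1.38 to -0.09) and -0.29 (-0.90 to 0.31). Ctnna2, a neuronal alpha-catenin, had 172 and 42.3 CPM in members and 97.2 and 73.6 in other mesenchyme. Arhgap20, the small proteoglycan Ogn, Dynlt1b and Postn completed the 10 lowest of these genes with the rule genes Adh1 and Wnt2, and were low in mutant other mesenchyme too, with ratios of -1.69, -2.26, -1.63 and -2.02. Dynlt1b has near-identical copies, among which counting can split its reads, and its ratio is uncertain.

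Genes induced through hypoxia-inducible factor (HIF) were higher in mutant members. HIF binds DNA at elements built on the letters ACGTG when oxygen or its sensing falls. Of 42 measured targets, 19 were at least 2-fold higher in mutant members and 0 lower, with a median of 0.86, against a median of 1.35 in other mesenchyme, where 25 of 44 were higher and 3 lower. Ddit4, an inhibitor of mTORC1 under stress, had the highest ratio among genes of at least 100 CPM outside the Y chromosome, with 57.8 CPM in control and 425 in mutant members, 2.88 (2.74 to 3.02). Bnip3, a mitophagy receptor, had 39.5 and 223 CPM, 2.49 (2.31 to 2.68), and Egln3, an oxygen-sensing hydroxylase, 6.39 and 41.9 CPM, 2.71 (2.26 to 3.17). In the 87 male-like mutant members Ddit4 had 418 CPM and Bnip3 223, and in the 8 female-like ones 322 and 159. These 8 cells differed from the male-like ones in both directions, with Tcf21 at 245 against 136 CPM, but Tbx4 at 28.8 against 150, Hoxa5 at 33.6 against 136, Actg2 at 130 against 362 and Col2a1 at 19.2 against 79.2. Vegfa, the endothelial growth factor, had 91.8 and 127 CPM in members and 70.0 and 202 in other mesenchyme, ratios of 0.47 (0.29 to 0.66) and 1.53 (1.39 to 1.66).

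The promoters of 3 of these genes are shown as examples. Each is given as the 250 bases before the gene's start and the first 50 after it, read on the minus strand (RefSeq, GRCm38.p6). They are not a ranking of the HIF list, whose highest ratio in members was that of Bhlhe40, at 3.32. All 3 hold the letters sought, which not every window of the list does. Capitals mark ACGTG on either strand, and in Bnip3 the matches on both strands overlap as CACGTG. The positions are chr10:59951721-59952020 for Ddit4, chr7:138909457-138909756 for Bnip3 and chr12:54203825-54204124 for Egln3.
Ddit4: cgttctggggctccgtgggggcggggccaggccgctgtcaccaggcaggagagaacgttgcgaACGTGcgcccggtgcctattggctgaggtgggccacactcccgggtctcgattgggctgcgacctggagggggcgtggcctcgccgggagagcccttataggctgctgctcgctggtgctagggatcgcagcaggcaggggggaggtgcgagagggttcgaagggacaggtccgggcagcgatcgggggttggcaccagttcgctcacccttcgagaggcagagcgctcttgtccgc
Bnip3: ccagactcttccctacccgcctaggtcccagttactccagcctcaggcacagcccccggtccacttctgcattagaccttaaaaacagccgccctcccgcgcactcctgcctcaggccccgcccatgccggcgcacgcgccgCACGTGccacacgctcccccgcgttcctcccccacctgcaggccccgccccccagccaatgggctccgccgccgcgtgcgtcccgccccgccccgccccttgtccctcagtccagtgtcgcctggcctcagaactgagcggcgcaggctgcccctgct
Egln3: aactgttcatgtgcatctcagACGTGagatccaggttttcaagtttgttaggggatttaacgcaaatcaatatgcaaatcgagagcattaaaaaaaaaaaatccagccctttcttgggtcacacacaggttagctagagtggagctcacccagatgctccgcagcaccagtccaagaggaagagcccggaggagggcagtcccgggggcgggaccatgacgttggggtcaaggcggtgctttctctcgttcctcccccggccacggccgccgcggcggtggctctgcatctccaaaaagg
These letters were found in 5315 of 27025 promoter windows of that length (19.7%) and in 20 of the 33 windows matched for the HIF list (60.6%). A match is a description of the letters and not of binding in these cells.

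Glycolytic enzymes were higher in mutant members too, with 9 of 17 at least 2-fold higher in mutant members, 0 lower and a median of 1.00, against 14 of 17 and 1.41 in other mesenchyme. Ldha, which turns pyruvate into lactate, had 798 CPM in control and 1676 in mutant members, 1.07 (1.02 to 1.12). The glucose transporter Slc2a1 stood at 1.83 (1.66 to 2.01) and the lactate exporter Slc16a3 at 2.41 (2.18 to 2.64). Hk2, which traps glucose in the cell, had 26.6 and 43.1 CPM, 0.70 (0.36 to 1.02), against 2.08 in other mesenchyme. In the list of PI3 kinase and FOXO genes, 2 of 25 were at least 2-fold higher in mutant members and 0 lower (median 0.23), and the IGF list had a median of 0.09.

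Smooth muscle genes were higher in mutant members, 7 of 9 by at least 2-fold (median 1.53, and 2.20 in other mesenchyme). Actg2, the actin of visceral smooth muscle, had 63.8 and 324 CPM in members, 2.35 (2.20 to 2.49). Cnn1, the contractile regulator calponin, had 24.1 and 115 CPM, and Carmn, a smooth muscle noncoding RNA, 21.2 and 119. Mylk, in contrast, stood at 0.23 (0.10 to 0.35) and Smtn at 0.06. Myh11 had a ratio of 1.42 (1.26 to 1.58) in members and of -0.68 (-1.10 to -0.27) in other mesenchyme, but of 0.64 in members with Adh1 or Wnt2 and 0.41 in those without.

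Cartilage genes differed between the 2 kinds of mesenchyme in direction. In members, 9 of 11 measured genes were at least 2-fold higher in mutant and 0 lower (median 1.57), while in other mesenchyme 0 of 15 were higher and 11 lower (median -1.56). Over the 11 genes measured in both kinds of cell the median in other mesenchyme was -1.35, with 7 at least 2-fold lower. The share of other mesenchyme with at least 3 of 7 cartilage genes was not lower in mutant, at 14.6% in control and 22.2% in mutant, or 10.3% and 10.8% after thinning. Sox9, the master factor of cartilage that tracheal mesenchyme also expresses, had 32.6 and 190 CPM in members, 2.54 (2.34 to 2.75), and 129 and 143 in other mesenchyme. Col2a1, the main cartilage collagen, had 8.26 and 80.2 CPM in members and 439 and 172 in other mesenchyme. Late cartilage genes were near 0 in members: Acan had 4 and 1 UMIs, Matn1 1 and 0, and Cnmd 15 and 2. The factors of cranial and pharyngeal mesenchyme were higher in mutant members too, 7 of 13 measured by at least 2-fold and 0 lower (median 2.34). The median was 0.98 in members with Adh1 or Wnt2 (6 higher and 2 lower of 12) and 0.69 in those without (4 higher and 2 lower of 8). Over all genes compared, 384 were higher and 613 lower of 11188 in members with Adh1 or Wnt2. In those without, 143 were higher and 347 lower of 8010. Over all members Alx1 had 1.95 and 28.9 CPM, Six2 4.79 and 30.5 and Msx2 0.799 and 16.7. These levels stayed below those of mutant other mesenchyme, 54.2, 107 and 23.2 CPM.

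**Figure D4:**
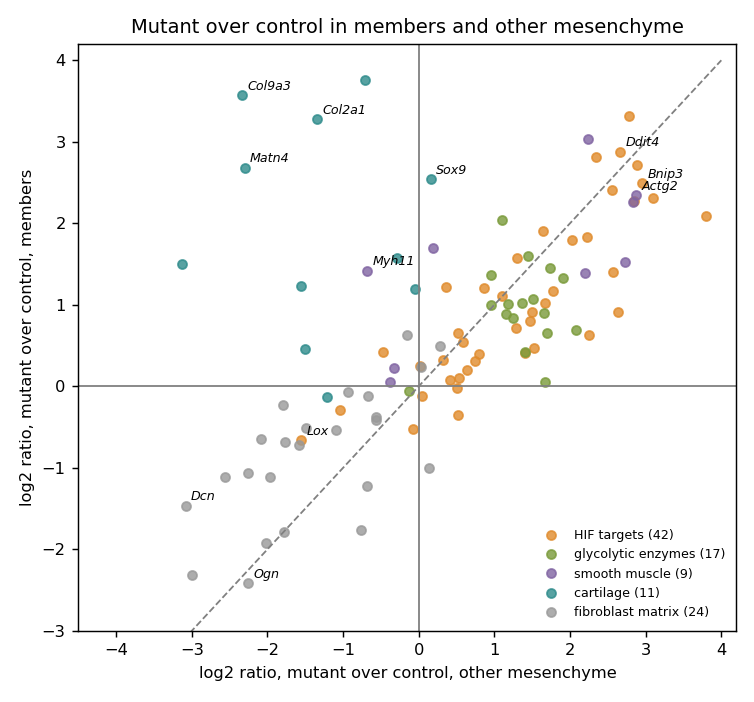
Log2 ratio of mutant over control in members (vertical) against other mesenchyme (horizontal), each point 1 gene of the HIF, glycolysis, smooth muscle, cartilage or fibroblast matrix lists with at least 20 UMIs in each kind of cell, numbers in the key. HIF and glycolysis genes lie mostly in the upper right, and 9 of the 11 cartilage genes in the upper left. The medians of these 11 are 1.57 in members and -1.35 in other mesenchyme.

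In the fibroblast matrix list, 11 of 24 genes were at least 2-fold lower in mutant members and 0 higher (median -0.70), against 14 of 24 in other mesenchyme (median -1.54). The median was -0.64 in members with Adh1 or Wnt2 (8 lower and 1 higher) and -1.46 in those without (18 lower and 0 higher). Over all genes compared, 613 of 11188 were lower and 384 higher with Adh1 or Wnt2. Without them, 347 of 8010 were lower and 143 higher. Over all members Col14a1 had 86.9 and 17.5 CPM, Ogn 130 and 24.4 and Eln, elastin, 209 and 60.6, while Vcan, versican, stood at 0.63 (0.54 to 0.72). Of 20 measured retinoid genes 9 were at least 2-fold higher and 1 lower (median 0.50): the receptor Rarb had 50.2 and 121 CPM, the synthetic enzyme Aldh1a2 17.2 and 45.2, and Crabp2 45.3 and 120. In other mesenchyme these ratios were 0.36, 0.00 and 0.22. The stress genes Hspa1a and Hspa1b, near-identical copies whose counts can be split between them, stood at 2.22 and 2.56 (3.40 and 3.72 in other mesenchyme), whereas the early response genes Junb and Egr1 stood at -1.69 and -1.56 and the whole list at a median of 0.06. Igfbp2, an IGF-binding protein, had 28.6 and 130 CPM in members, 2.19 (1.96 to 2.42), and 0.70 in other mesenchyme. Its ratio was 2.69 in members with Adh1 or Wnt2 and 0.60 (0.26 to 0.95) in those without. Proliferation genes had a median of 0.25, replication genes of -0.29 and genes of endoplasmic reticulum stress of -0.00.

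Since Adh1 or Wnt2 was detected in 84.6% of control members (402 of 475, 81.1 to 87.8) and 43.3% of mutant members (45 of 104, 33.6 to 53.3), the genotypes were also set side by side within each kind. HIF medians were 0.89 in members with Adh1 or Wnt2 and 0.73 in those without, glycolysis medians 1.04 and 0.98, smooth muscle medians 1.02 and 0.94 and cartilage medians 1.76 and 2.13. Hs6st3 stood at -3.65 (-4.09 to -3.23) and -3.46 (-3.98 to -2.98), Ddit4 at 3.02 and 2.32, and Fgf10 at -1.29 and -1.64. The split uses rule genes whose own levels differ between the genotypes, so these values are a description of the 2 kinds and not a check on the differences. Of 80 genes followed in both, 60 had the same sign and 20 opposite signs, Twist1 at 2.32 and -1.63, Prrx1 at 0.86 and -1.71, Osr1 at 1.24 and -0.35 and Mylk at -0.58 and 0.28. The medians of the other foregut genes were 0.20 and -0.22, and those of cardiomyocyte genes, with 7 and 3 measured, -2.81 and 1.37. Actg2, at 2.35 over all members, stood at 1.5 (1.22 to 1.77) and 1.40 (1.19 to 1.60) within them. It was higher in members without Adh1 and Wnt2 in both libraries, by 2.14 in control and 2.04 in mutant on the log2 scale, and the same ratios for Hoxb6 were -1.78 and -1.33. These kinds were drawn after their values were seen.

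**Figure D5:**
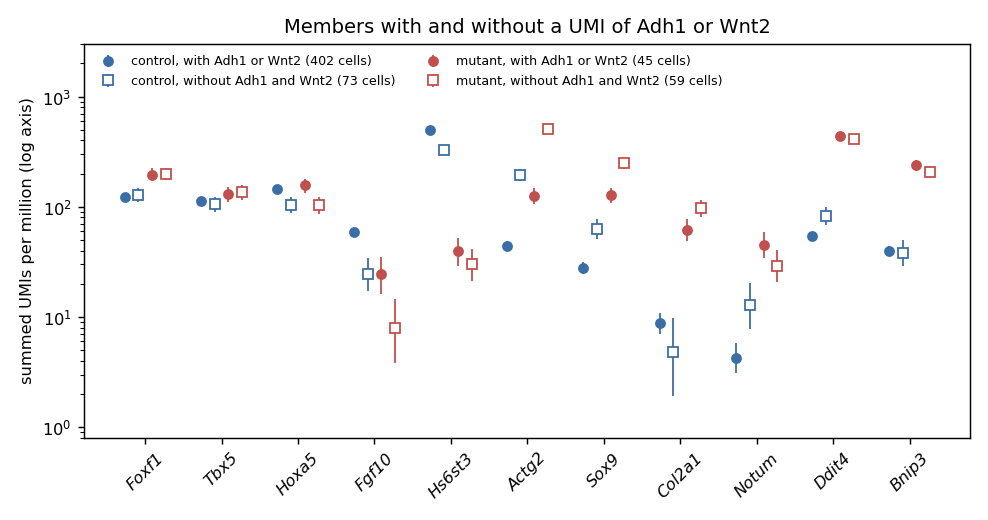
Level in CPM (log axis) of 11 genes in members with (filled) and without (open) a UMI of Adh1 or Wnt2, in the control (blue) and mutant (red) library, with 95% Poisson intervals and cell numbers in the key. Hs6st3 is lower and Sox9, Col2a1, Ddit4 and Bnip3 higher in mutant in both kinds of member, while Tbx5 and Hoxa5 lie close together and Foxf1 is higher in mutant by 0.68 and 0.61 on the log2 scale.

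Transcripts of other cell types were also counted in members, and their sums were not always below those of other mesenchyme. The summed level of 10 endothelial genes was 50.4 CPM in control and 80.6 in mutant members (Egfl7 and Erg the most abundant), against 89.4 and 98.3 in other mesenchyme. Of 11 epithelial genes the sums were 8.70 and 15.5 CPM against 30.0 and 68.8, led by Krt18 and Krt8, and Nkx2-1, Cdh1, Cldn6, Foxa1, Foxa2 and Sftpc had no UMI in mutant members. Mesothelial genes summed to 27.5 and 67.9 CPM against 86.0 and 107, with Aldh1a2 at 17.2 and 45.2 of these. Cardiomyocyte genes summed to 259 CPM in control members, led by Myl7 at 75.5, and 89.5 in mutant members, led by Myl4, against 250 and 238 in other mesenchyme. Neuronal genes summed to 55.9 and 33.4 CPM against 153 and 209 (Dcx and Tubb3). Myeloid genes summed to 11.3 and 4.48 CPM against 10.6 and 5.12 (Cd68), and erythroid genes to 13.6 and 39.9 against 21.1 and 44.8 (Hbb-bs and Hbb-y). Mural genes summed to 171 and 188 CPM against 159 and 209 (Pdgfrb and Rgs5), and branchial muscle genes to 172 and 135 against 158 and 355 (Ttn and Tnnt1). Neural crest and Schwann genes summed to 126 and 155 CPM against 43.9 and 43.2, of which Ednrb was 106 and 143. Liver genes, led by Apoa1 and Afp, summed to 2.22 and 17.9 CPM in members, and to 446 CPM in mutant other mesenchyme against 2.83 in control, with at least 2 liver genes in 7 of 104 mutant members, 32 of 481 mutant other mesenchymal cells and 0 control cells of either kind. The part of these transcripts in the differences between the libraries was not tested.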

How the data were processed

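Count matrices of UMIs per gene and cell barcode were deposited by the authors for 1 control and 1 mutant library, each from eYFP-positive, 7-AAD-negative cells of 3 pooled embryos. The submitters' processing notes name Cell Ranger 7.1.0 and mm10. The deposited counts were used as they are, without ambient RNA correction or integration. Of 4505 control and 5357 mutant barcodes, 2783 and 3489 passed the limits on genes and mitochondrial UMIs, with medians of 20412 and 16839 UMIs. The members and gene lists were chosen with earlier results of these data known.

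UMIs were summed over the cells of each class (Python 3.11.15, pandas 2.3.3, scipy 1.17.1). A gene of a list counted as measured with at least 20 UMIs over both groups compared, and background shares used at least 50. A gene at 0 in 1 group entered at 3 UMIs. Counts at least 2-fold apart are descriptions and not calls. Outside the rule, the 12 genes highest and the 12 lowest in members of both libraries, the 10 highest and 10 lowest between genotypes outside Xist and the Y chromosome, and listed genes by role were named. Gata5 was left to the closing section because it lies outside these.

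Doublets were not removed from the values given: Scrublet's own threshold (scanpy 1.11.5) marked 0 and 1 cells, which is not a working call, and leaving out the 162 and 230 cells of highest score was an alternative. Others changed the rule, the comparison cells, the limits on cells, thinning, sex, UMI minimum and scaling (TMM from edgeR 4.0.16, used for scaling alone). The calculation of single-gene ratios and their intervals was checked against simulated counts with known changes. That of list medians was not. Gene positions are from GENCODE on GRCm38. Counts of genes past 2-fold in the hedgehog list are not reported here.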

Additional observations from a re-analysis of the deposited data

Results flagged for a closer look

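The cartilage list had a median log2 ratio of mutant over control of 1.57 in members and of -1.56 in other mesenchyme, opposite in sign under the same contrast. The 2 medians are over 11 and 15 measured genes, and over the 11 measured in both the median in other mesenchyme was -1.35. With 1 library per genotype this difference was not tested.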

How the results depend on the processing

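Of 130 values of the main measures under the alternatives, 95 stayed within the counting error of the value given above (shares of genes within 1.5 times) and 35 did not. Requiring 4 of the 6 genes gave members shares of 13.9% and 1.61% (control and mutant), a foregut median of 1.59 in mutant, and HIF and glycolysis medians of 0.64 and 0.84. Requiring 2 of Tbx4, Wnt2, Adh1 and Hoxb5 gave a glycolysis median of 1.09. Allowing no exclusion gene gave shares of 12% and 2.12%. Thinning to 5000 UMIs gave shares of 12.2% and 1.27%, foregut medians of 1.33 and 0.49, a HIF median of 0.66 and a glycolysis median of 1.03. Keeping cells from 1000 genes on gave a mutant foregut median of 1.58 and a glycolysis median of 1.06. Female-like cells alone, with 8 mutant members, gave a mutant share of 0.682%, a mutant foregut median of 1.12, a glycolysis median of 0.65, and 11.6% of genes higher and 10.7% lower in mutant members. The mean over cells gave a control foregut median of 1.41 and a glycolysis median of 1.05. A minimum of 100 UMIs, and of 1 UMI, gave a mutant foregut median of 1.5, and with 1 UMI 27.5% of genes were higher in mutant members, since a gene at 0 enters at 3 UMIs in the smaller group. Other mesenchyme by 3 of 3 genes gave foregut medians of 1.38 and 1.52, and by 1 of 3 a control median of 1.93. Among alternatives chosen after seeing the data, members with Adh1 or Wnt2 gave a mutant foregut median of 1.49 and a glycolysis median of 1.04, members without them a HIF median of 0.73 and 1.79% of genes higher in mutant, and male-like mutant cells a share of 4.67% and a foregut median of 1.53. Of 2104 values of list medians, 3 were counted as reversed. Hox groups 7 to 10 between genotypes stood at -1.33 over the 5 genes measured with at least 20 UMIs. They were at 1.09 in female-like cells and 0.46 with 1 UMI, medians that can rest on other genes. Hox groups 4 to 6 in control were at -0.41 in members without Adh1 and Wnt2 against 1.83. Some medians between genotypes also changed sign within the 2 kinds of member. Cardiomyocyte genes went from -2.23 over all members to 1.37 without Adh1 and Wnt2. Branchial muscle genes went from 0.81 to -0.91 with Adh1 or Wnt2. The 24 genes named for the largest ratios between members and other mesenchyme kept their sign in 1008 values, and the 20 named between genotypes in 338, although 224 and 90 moved. Genes with smaller ratios were not all so: mutant over control, Mylk was at 0.23 over all members and -0.58 in those with Adh1 or Wnt2, and Wnt5a at 0.92 and, without them, -0.03. Leaving out doublets, members with branchial muscle genes or comparison cells with liver genes, a mitochondrial limit of 5%, TMM and median-ratio scaling moved none of the main measures. Each library stands alone, so no replicate could be left out. No paired analysis was possible because each genotype has 1 library. The cause of each shift was not tested.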

Other observations

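Gata5, a zinc finger factor of cardiac and gut tissue, was chosen after its values were seen. It had 63.2 CPM in control members and 31.3 in mutant members, against 1.42 and 3.98 in other mesenchyme, log2 ratios of 5.48 and 2.98. It was detected in 58.5% of control and 31.7% of mutant members and in 2.02% and 4.37% of other mesenchyme.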
